A study of Rattus norvegicus with 9 samples.

Results

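The mitochondrial ribosomal protein genes were followed in rat aortic smooth muscle cells (RASMC) kept for 6 hr under conditions that stop the Na+,K+-ATPase. They were taken by name, as every array gene with a single symbol that begins with Mrpl or Mrps and a digit. No gene was let in or left out for its measured change, although earlier results of these data were known. The rule found 70 genes, 44 of the large subunit (Mrpl) and 26 of the small subunit (Mrps), among the 14324 genes with a single symbol. Of these, 66 are read by 1 probe set and 4 by several, and of several the one with the highest mean signal was used. The symbols of 3 of them, Mrpl9, Mrpl11 and Mrpl24, begin with a lower-case letter in the annotation and are capitalised here.

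Gene expression was measured on 9 Affymetrix Rat Gene ST arrays, 3 for each of 3 conditions. All RASMC were a commercial culture used within fewer than 10 passages, made quiescent in low serum and washed with K+-free DMEM. They then spent 6 hr in control DMEM, in DMEM with 3 mM ouabain, a cardiac glycoside that blocks the pump, or in K+-free DMEM, which withholds the ion the pump carries inward. The methods describe 3 independent experiments, but how many animals the culture came from is unknown here. The values are log2 signals, so that a difference of 1 is a 2-fold change. Array medians over all probe sets lay between 6.76 and 6.80, and replicate arrays differed by a median SD of 0.0689 over the 70 genes (largest, 0.375). Each change was tested with limma across all 27342 probe sets, and a gene was called lower or higher when its p, adjusted by Benjamini-Hochberg, was under 0.05 and its fold above 1.2. Of 8 smooth muscle markers 7 were measured, and 6 of them, including Tagln, Cnn1 and Myh11, lay above the median of all values, whereas Des, at 5.77, did not. The endothelial markers Cdh5 and Tek both lay below it, while 2 of 5 macrophage markers, Cd14 (8.54) and Cd68 (7.21), and 3 of 4 fibroblast markers lay above it, Col1a1 at 13.0. The other 3 of 5 endothelial markers were not measured.

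Mitochondria keep a ribosome of their own, which translates the few proteins still encoded by mitochondrial DNA, all of them parts of the respiratory chain or of ATP synthase. Its RNA is mitochondrial, while all its proteins are encoded in the nucleus, made on cytosolic ribosomes and imported. The small subunit binds the mRNA and decodes it, and the large subunit forms the peptide bond and feeds the chain into the inner membrane. Some of its proteins descend from bacterial ribosomal proteins and others exist only in mitochondria.

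Both treatments lowered most of the mitochondrial ribosomal protein genes. In ouabain 48 of the 70 were called lower and 4 higher, and in K+-free DMEM 50 were called lower and 2 higher. Over all genes with 1 symbol, 22.7% were called lower and 17.5% higher in ouabain, and 24.0% lower and 17.8% higher in K+-free DMEM, against 68.6% and 71.4% of these genes called lower. The 70 genes are brighter than most, with mean signals from 6.93 (Mrpl2) to 12.04 (Mrps21). Among the 7872 genes at least as bright as Mrpl2, 36.4% were called lower and 23.5% higher in ouabain, and 38.7% lower and 24.1% higher in K+-free DMEM. All 3 treated arrays lay below all 3 controls for 56 of the 70 in ouabain and 57 in K+-free DMEM, compared with 28.8% and 30.7% of all genes and with 46.0% and 48.7% of those at least as bright as Mrpl2. Values were from cultures measured in bulk, where less RNA of a gene per cell and fewer cells that carry it cannot be told apart. Of the macrophage markers, 3 of 5 were called higher in each treatment: their summed linear signal was 457 to 512 on the control arrays, 974 to 1035 in ouabain and 625 to 729 in K+-free DMEM. Cd68 and Cd14 made up most of it, while the group means of Ptprc and Adgre1 lay between 5.58 and 5.76 on the log2 scale. Of the 7 smooth muscle markers 3 were called lower in ouabain and 2 in K+-free DMEM, with sums of 24400 to 25392 in control, 20589 to 23284 in ouabain and 22847 to 23541 in K+-free DMEM. Of the fibroblast markers 2 of 4 were called higher in K+-free DMEM (18425 to 18851, against 15865 to 16235 in control). Of the endothelial markers 1 of 2 was called higher in each treatment, with sums of 98.1 to 101 in control, 113 to 117 in ouabain and 113 to 116 in K+-free DMEM, and the part of such shifts in the results was not tested.

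**Figure D1:**
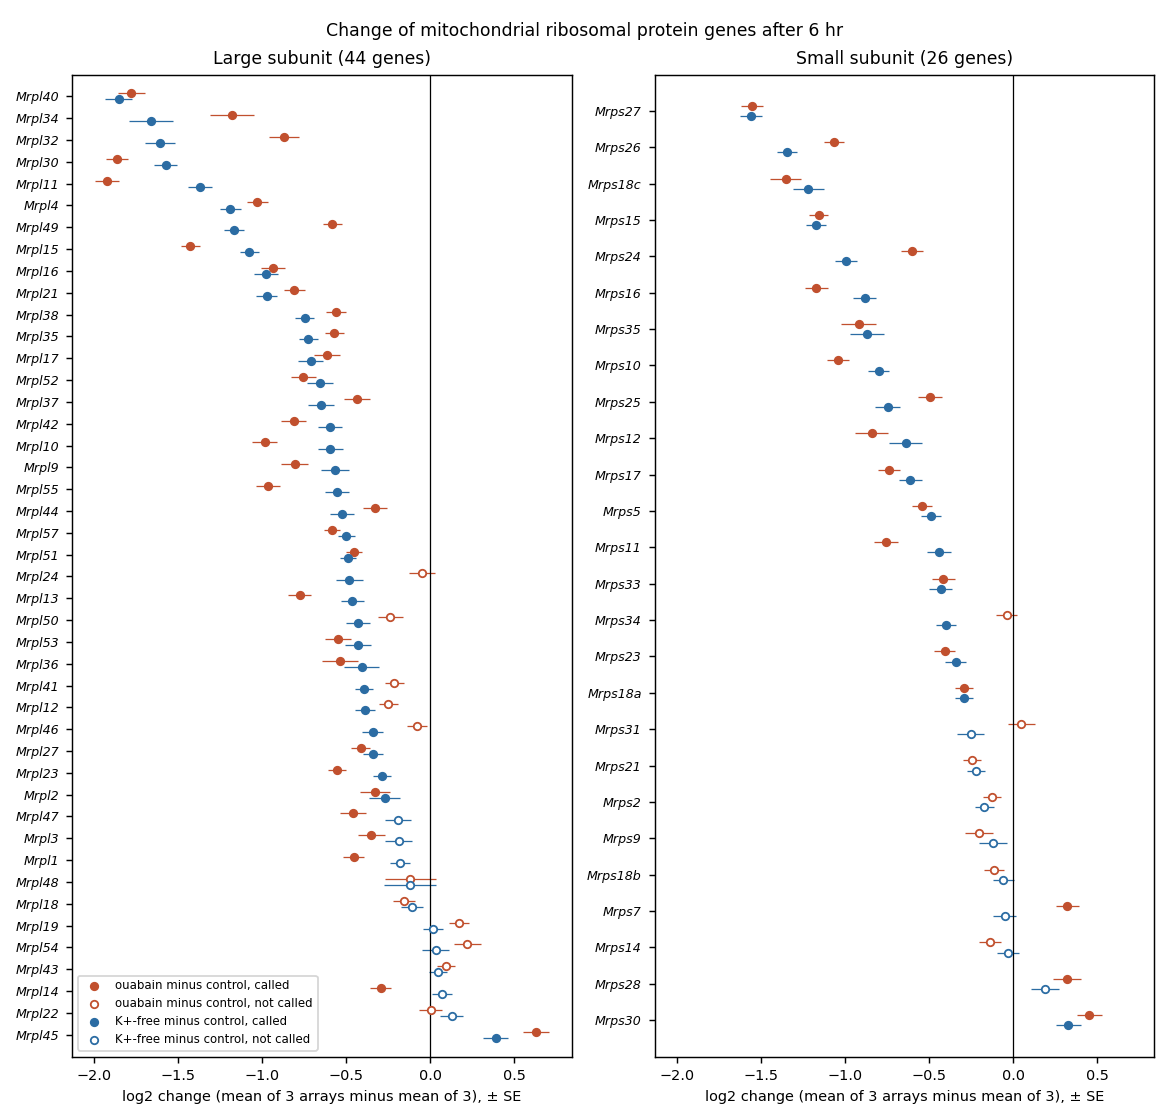
Change of each of the 70 mitochondrial ribosomal protein genes, as the mean log2 signal of 3 treated arrays minus that of 3 control arrays with its SE, for ouabain (red) and K+-free DMEM (blue). Filled points passed the test. In ouabain 48 genes fell and 4 rose, and in K+-free DMEM 50 fell and 2 rose. With the arrays centred on B2m 57 and 58 fell, beside 29.8% and 32.0% of all genes.

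Most genes of either subunit fell. In the large subunit 32 of 44 genes fell and 1 rose in ouabain, and 33 fell and 1 rose in K+-free DMEM. In the small subunit 16 of 26 fell and 3 rose in ouabain, and 17 fell and 1 rose in K+-free DMEM. The median change of the large subunit was -0.54 in ouabain and -0.49 in K+-free DMEM, and that of the small subunit was -0.46 and -0.44, beside 0.06 and 0.05 over all genes and -0.07 and -0.09 over those at least as bright as Mrpl2. On the single arrays, the median log2 signal of the large subunit was 9.24, 9.15 and 9.20 in control, 8.65, 8.75 and 8.62 in ouabain, and 8.79, 8.63 and 8.71 in K+-free DMEM. For the small subunit it was 10.00, 10.03 and 9.98 in control, 8.95, 9.06 and 8.97 in ouabain, and 8.97, 9.02 and 8.95 in K+-free DMEM. No treated array reached the range of the controls, and the ouabain and K+-free arrays overlapped in both subunits. Array medians over all genes with 1 symbol separated in the same way and are not particular to these genes. They were 7.66, 7.63 and 7.62 in control, 7.28, 7.33 and 7.31 in ouabain, and 7.34, 7.28 and 7.31 in K+-free DMEM. A median of signals need not fall on the same gene on every array. The steps between these array medians, larger in the small subunit, are therefore not the median changes of its genes, which were -0.46 and -0.44. Falls of more than 2-fold were seen for 6 large and 6 small subunit genes in ouabain and for 8 and 4 in K+-free DMEM. Another 15 large and 5 small subunit genes in ouabain, and 16 and 6 in K+-free DMEM, fell by less than 1.5-fold. The shares of all genes that fell by these amounts are not given here.

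Stretches upstream of 4 of these genes are shown to set the deepest falls beside a gene that rose. Mrpl40 and Mrps27 fell most in the large and in the small subunit in K+-free DMEM, Mrpl32 had the largest difference between the treatments, and Mrpl45 rose in both. Each run holds the 250 bases before the start used in RefSeq's promoter entry, which for Mrps27 lies 26 bases inside the span of the gene and for the others at its edge, 5′ to 3′ along the plus strand on GRCr8: chr11:95637501-95637750, chr2:32473954-32474203, chr17:55260401-55260650 and chr10:82804789-82805038. Capitals mark a match, on either strand, to one of the 4 motifs described further on. Mrps27 carries the ETS core, Mrpl32 the NRF1 core, and neither Mrpl40 nor Mrpl45 carries any of the 4.
Mrpl40: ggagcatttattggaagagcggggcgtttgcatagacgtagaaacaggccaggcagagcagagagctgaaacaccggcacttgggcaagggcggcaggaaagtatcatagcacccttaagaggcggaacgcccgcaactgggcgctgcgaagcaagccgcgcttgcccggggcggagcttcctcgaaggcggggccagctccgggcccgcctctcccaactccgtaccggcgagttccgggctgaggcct
Mrps27: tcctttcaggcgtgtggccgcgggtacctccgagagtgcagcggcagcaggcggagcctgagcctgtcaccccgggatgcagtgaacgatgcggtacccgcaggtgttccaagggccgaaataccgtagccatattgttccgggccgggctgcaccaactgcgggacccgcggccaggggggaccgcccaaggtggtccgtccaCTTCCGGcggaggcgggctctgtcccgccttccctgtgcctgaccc
Mrpl32: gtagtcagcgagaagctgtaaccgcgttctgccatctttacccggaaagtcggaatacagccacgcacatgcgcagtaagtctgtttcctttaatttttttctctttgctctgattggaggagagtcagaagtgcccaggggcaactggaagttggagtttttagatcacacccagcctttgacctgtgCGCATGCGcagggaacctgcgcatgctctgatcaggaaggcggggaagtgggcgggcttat
Mrpl45: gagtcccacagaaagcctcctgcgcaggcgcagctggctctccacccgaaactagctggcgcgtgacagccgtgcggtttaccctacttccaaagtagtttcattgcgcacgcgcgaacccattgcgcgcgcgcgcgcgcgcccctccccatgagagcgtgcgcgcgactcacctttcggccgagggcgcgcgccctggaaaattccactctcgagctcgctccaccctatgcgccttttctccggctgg

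Mrpl40, a large subunit protein without a bacterial relative, is one of 3 members that the study lists among its strongly lowered genes, with Mrpl32 and Mrpl34, so that their falls are not independent of that choice. Its log2 signals were 8.98, 8.89 and 8.99 in control, 7.03, 7.28 and 7.21 in ouabain and 7.06, 6.98 and 7.25 in K+-free DMEM. The treated arrays of both kinds lay far below the controls and overlapped each other. The change was -1.78 (SE 0.083, limma adjusted p = 2.54e-08) in ouabain and -1.86 (adjusted p = 1.55e-08) in K+-free DMEM, and a second probe set gave -2.07 and -2.06. Mrpl30, the relative of a bacterial protein, went from 8.75, 8.67 and 8.68 in control to 6.86, 6.78 and 6.85 in ouabain and 7.15, 6.98 and 7.24 in K+-free DMEM. It fell by 1.87 (limma adjusted p = 5.53e-09) and by 1.58 (adjusted p = 1.15e-08), with all K+-free arrays above all ouabain arrays. Mrpl15, also of bacterial descent, was 8.90, 8.96 and 9.05 in control, 7.51, 7.59 and 7.52 in ouabain and 7.94, 7.86 and 7.88 in K+-free DMEM, a change of -1.43 and -1.08. The arrays of the 3 conditions did not overlap for Mrpl15 or Mrpl30.

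The stalk of the large subunit, which recruits the translation factors, is built from Mrpl10, Mrpl11 and Mrpl12. Mrpl11 had the largest fall of all 70 genes in ouabain: its signals were 9.24, 9.12 and 9.10 in control, 7.23, 7.36 and 7.10 in ouabain and 7.75, 7.85 and 7.75 in K+-free DMEM. It changed by -1.93 (SE 0.073, limma adjusted p = 6.96e-09) in ouabain and -1.37 (adjusted p = 5.00e-08) in K+-free DMEM. Mrpl10, the base on which the stalk stands, went from 10.54, 10.50 and 10.40 to 9.44, 9.65 and 9.39 in ouabain and to 9.91, 9.95 and 9.79 in K+-free DMEM, a change of -0.99 and -0.60. Both were lowest in ouabain, with K+-free arrays in between. Mrpl12 forms the mobile tip of the stalk. Its signals were 8.62, 8.59 and 8.46 in control, 8.30, 8.37 and 8.25 in ouabain and 8.16, 8.18 and 8.16 in K+-free DMEM, a fall of 0.39 in K+-free DMEM (limma adjusted p = 0.000188) and a difference of -0.25 in ouabain that stayed under the fold limit. It was the closest of the uncalled genes to that limit in ouabain, and Mrps18a, at -0.29, was the closest called one. Without control replicate 3 Mrpl12 was called in ouabain, at -0.30, and without ouabain replicate 2, at -0.28. In K+-free DMEM the nearest pair was Mrpl2, called at -0.27 and not called without either control replicate 1 or 3 or K+-free replicate 1 or 3, and Mrps31, not called at -0.25 but called without control replicate 3 (-0.31) or K+-free replicate 1 (-0.30) or 3 (-0.28).

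The proteins around the exit tunnel, where the nascent chain leaves the large subunit, went apart. Of the 6, Mrpl17 and Mrpl23 fell in both treatments, Mrpl47 was called lower in ouabain and Mrpl24 in K+-free DMEM, Mrpl22 was not called and Mrpl45 rose. Mrpl17 changed by -0.62 and -0.71 in ouabain and K+-free DMEM, and Mrpl23, close to the point where the chain emerges, by -0.56 and -0.29, the latter not called without K+-free replicate 2 (-0.25). Mrpl22, whose bacterial relative lines the tunnel, was 9.01, 8.88 and 8.85 in control, 8.87, 8.96 and 8.92 in ouabain and 9.12, 8.91 and 9.09 in K+-free DMEM, and the groups overlapped. After a repeated quantile normalization Mrpl22 was called higher in K+-free DMEM, at 0.30. Mrpl45, which ties the tunnel exit to the inner membrane, was 10.15, 10.18 and 10.10 in control, 10.82, 10.77 and 10.74 in ouabain and 10.66, 10.35 and 10.59 in K+-free DMEM. All treated arrays lay above all controls, with a rise of 0.63 (SE 0.076, limma adjusted p = 4.02e-05) in ouabain and of 0.39 (adjusted p = 0.00151) in K+-free DMEM. With the arrays centred on B2m, a reference gene of the study that itself lay 0.15 and 0.16 above control, Mrpl45 stayed called in ouabain and was 0.23, under the fold limit, in K+-free DMEM.

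In the small subunit Mrps27, a protein of the pentatricopeptide repeat family found only in mitochondria, fell in both treatments. Its signals were 10.11, 10.22 and 10.21 in control, 8.62, 8.62 and 8.64 in ouabain and 8.75, 8.52 and 8.59 in K+-free DMEM. The change was -1.56 in each (limma adjusted p = 1.19e-08 in ouabain and 8.40e-09 in K+-free DMEM), and the ouabain and K+-free arrays overlapped. Mrps18c, 1 of 3 forms of a bacterial protein, went from 10.85, 10.83 and 10.75 to 9.24, 9.61 and 9.53 in ouabain and to 9.67, 9.47 and 9.62 in K+-free DMEM, a change of -1.35 and -1.22. Of the other forms, Mrps18a fell by 0.29 in both, without ouabain replicate 3 by 0.26 and then under the fold limit, and Mrps18b was called in neither, at -0.11 and -0.06. Mrps16, of bacterial descent, was 8.65, 8.74 and 8.69 in control, 7.56, 7.64 and 7.36 in ouabain and 7.77, 7.85 and 7.80 in K+-free DMEM, a change of -1.17 and -0.88. Mrps26, found only in mitochondria, showed the opposite order, from 10.32, 10.31 and 10.40 in control to 9.27, 9.33 and 9.23 in ouabain and 8.98, 9.09 and 8.92 in K+-free DMEM (-1.07 and -1.35).

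**Figure D2:**
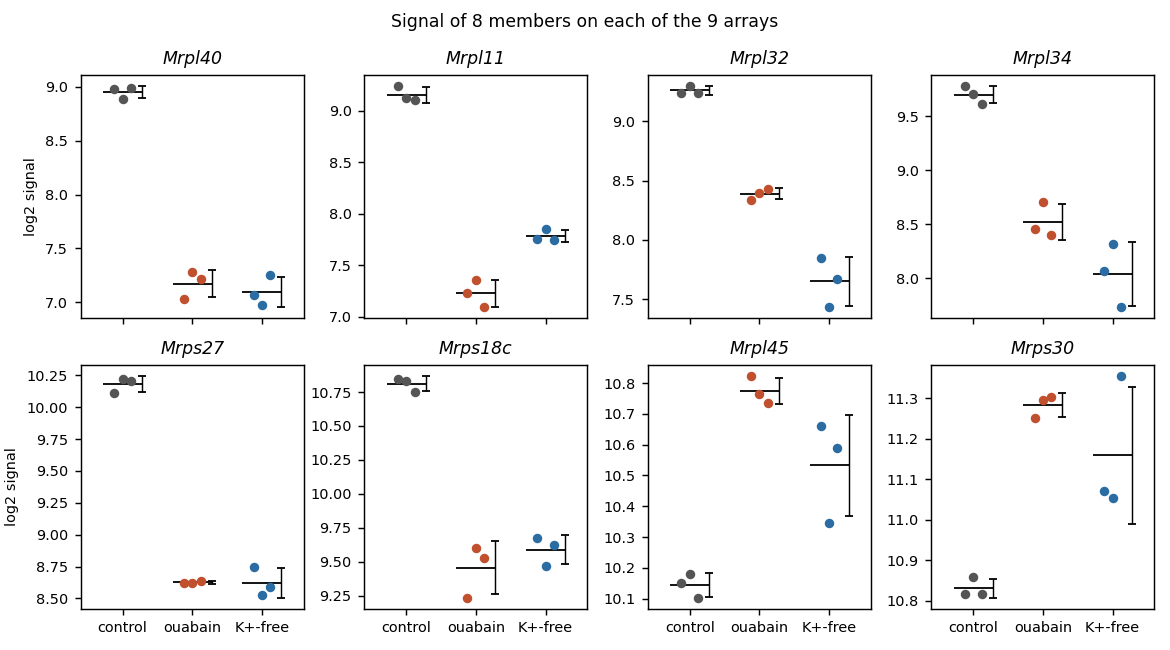
Log2 signal of 8 mitochondrial ribosomal protein genes on each of the 9 arrays; points are arrays, horizontal lines group means and error bars the SD of 3 arrays, and each panel has its own scale, which does not start at 0. The 6 genes that fell lie below the control range on every treated array, Mrpl32 and Mrpl34 are lowest in K+-free DMEM, Mrpl11 is lowest in ouabain, and Mrpl45 and Mrps30 lie above the controls on every treated array.

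Only 4 of the 70 genes were called higher in either treatment. Mrps30, named for the small subunit but placed in the large one by structures, was 10.82, 10.86 and 10.82 in control, 11.25, 11.30 and 11.30 in ouabain and 11.07, 11.05 and 11.35 in K+-free DMEM. It rose by 0.45 in ouabain (limma adjusted p = 4.95e-04) and by 0.33 in K+-free DMEM (adjusted p = 0.00424). Without K+-free replicate 3, its highest array, the latter value was 0.23 and under the fold limit, which leaves 1 gene called higher in K+-free DMEM. Mrps7, a relative of a bacterial protein in the head of the small subunit, was 10.80, 10.82 and 10.82 in control, 11.09, 11.30 and 11.02 in ouabain and 10.74, 10.79 and 10.76 in K+-free DMEM. It rose by 0.32 in ouabain (adjusted p = 0.00273), by 0.24 and under the fold limit without ouabain replicate 2. Mrps28 rose by 0.32 in ouabain (adjusted p = 0.00818) and was 0.19 above control in K+-free DMEM, where it was not called. Centred on B2m, neither Mrps7 (0.17) nor Mrps28 (0.17) was called in ouabain, nor Mrps30 (0.17) in K+-free DMEM. After a repeated quantile normalization Mrps7 in ouabain (0.255) and Mrps30 in K+-free DMEM (0.249) were under the fold limit. Mrps28 (0.35) and Mrpl22 (0.30) were then called higher in K+-free DMEM.

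Of the 70 genes, 44 were called lower in both treatments, 28 of the large and 16 of the small subunit, which is 91.7% of those lowered by ouabain and 88.0% of those lowered by K+-free DMEM. Of all genes 19.0% were called lower in both, and of those at least as bright as Mrpl2 30.3%, which is 83.3% and 78.4% of the bright genes lowered by each. Both comparisons use the same 3 control arrays, and these shares were not tested against each other. Mrpl45 and Mrps30 were called higher in both, 12 genes were called in neither, and none was called in opposite directions. The 4 genes called lower in ouabain only, Mrpl1, Mrpl3, Mrpl14 and Mrpl47, belong to the large subunit. The 6 called lower in K+-free DMEM only are Mrpl12, Mrpl24, Mrpl41, Mrpl46, Mrpl50 and Mrps34. Which genes fall in these sets moved with the scaling. After a repeated quantile normalization Mrpl1, Mrpl3 and Mrpl14 were not called in ouabain, nor Mrpl12, Mrpl46 and Mrps34 in K+-free DMEM, while centred on B2m Mrpl1, Mrpl3 and Mrpl47 were called lower in K+-free DMEM too and Mrpl12, Mrpl41 and Mrpl50 in ouabain too. In 3 genes of each set the treatments themselves differed by the test, and for the others a difference was not shown. Among the former, the differences of Mrpl1, Mrpl46 and Mrpl47 were not called without ouabain replicate 2 or K+-free replicate 1, or without some other arrays. A second probe set of Mrpl41 was called lower in both treatments (-0.35 and -0.49), and those of Mrps11 (-1.15 and -1.02) and Mrpl42 (-0.65 and -0.50) gave the sign of the first. RefSeq holds a second copy each of Mrpl41 and Mrpl42, and whether the probes also read these copies was not tested.

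Set directly against each other, K+-free DMEM was lower than ouabain in 10 of the 70 genes and higher in 12, or 14.3% and 17.1%. Of all genes 10.7% were called lower and 10.9% higher, and of those at least as bright as Mrpl2 18.1% and 17.9%, so that the shares were near this background and the values that follow describe single genes. The genes higher in K+-free DMEM comprise 10 of the large and 2 of the small subunit, and those lower comprise 5 of each. Mrpl32, which must be cut by a mitochondrial protease before it can join the ribosome, had the largest difference. Its signals were 9.24, 9.30 and 9.24 in control, 8.34, 8.40 and 8.43 in ouabain and 7.85, 7.43 and 7.67 in K+-free DMEM. It fell by 0.87 in ouabain (SE 0.088, limma adjusted p = 9.52e-06) and by 1.61 in K+-free DMEM (adjusted p = 6.46e-08), and the treatments differed by -0.74 (adjusted p = 1.15e-04). The 3 groups of arrays did not overlap. Mrpl49, found only in mitochondria, was 8.92, 8.82 and 8.85 in control, 8.21, 8.29 and 8.34 in ouabain and 7.76, 7.70 and 7.62 in K+-free DMEM, a difference of -0.59 (adjusted p = 3.25e-05) between treatments.

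Mrpl34, a small protein of the large subunit, was 9.78, 9.71 and 9.62 in control, 8.46, 8.71 and 8.40 in ouabain and 8.06, 8.32 and 7.73 in K+-free DMEM. It fell by 1.18 and by 1.66, and the difference of -0.48 (limma adjusted p = 0.0214) was not called without ouabain replicate 2 (-0.39, adjusted p = 0.0773), without K+-free replicate 1 (-0.49, 0.0535) or without K+-free replicate 3 (-0.33, 0.0636). Mrpl24, near the tunnel exit, was 9.28, 9.15 and 9.13 in control, 9.16, 9.20 and 9.05 in ouabain and 8.81, 8.53 and 8.77 in K+-free DMEM. Its ouabain and control arrays overlapped, and K+-free DMEM differed from ouabain by -0.43 (adjusted p = 0.00216). In the other direction Mrpl11 was 0.56 higher in K+-free DMEM than in ouabain (limma adjusted p = 2.15e-04), Mrpl55, found only in mitochondria, 0.41, Mrpl10 0.39 and Mrpl14, of bacterial descent, 0.37. Mrpl14 was 7.91, 7.92 and 7.89 in control, 7.59, 7.65 and 7.60 in ouabain and 7.90, 8.11 and 7.92 in K+-free DMEM, so that its K+-free arrays overlapped the controls. Without ouabain replicate 2, the number of genes lower in K+-free DMEM than in ouabain was 6 in place of 10. Mrpl47, 0.27 higher in K+-free DMEM, was not called when any ouabain array or K+-free replicate 1 or 3 was left out.

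**Figure D3:**
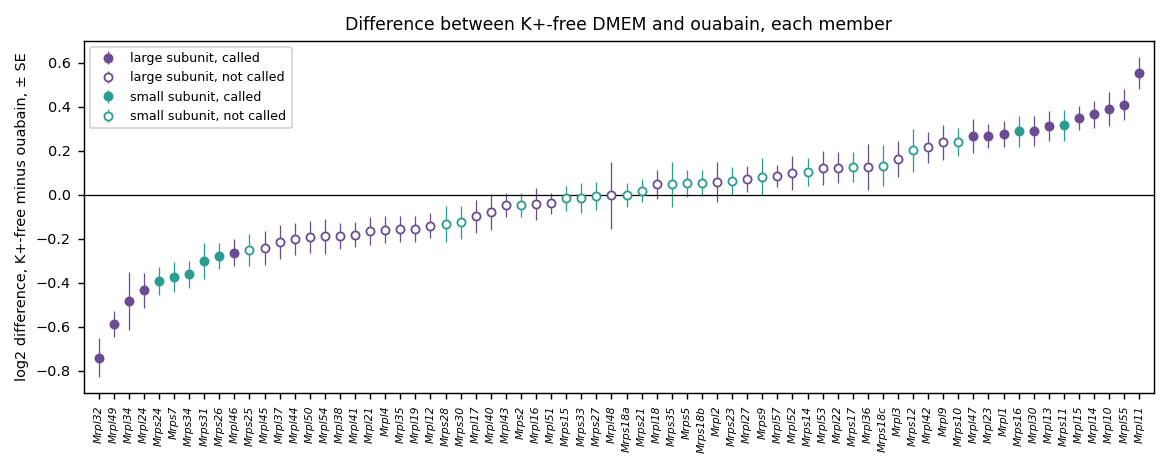
Difference of the mean log2 signals in K+-free DMEM and in ouabain for each of the 70 genes, in rising order, with its SE; filled points passed the test, large subunit genes are purple and small subunit genes green. Of 22 called differences, 10 are below 0, led by Mrpl32 at -0.74, and 12 above 0, led by Mrpl11 at 0.56.

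Genes with and without a relative in bacteria were also counted apart. Of 26 large subunit genes with a bacterial relative, 21 fell in ouabain and 19 in K+-free DMEM, and of 17 without one, 10 and 13 fell. In the small subunit 10 of 16 with a bacterial relative fell in each treatment, and of 9 without one 6 fell in ouabain and 7 in K+-free DMEM. Of all genes 22.7% and 24.0% were called lower in ouabain and K+-free DMEM, and of those at least as bright as Mrpl2 36.4% and 38.7%. After a repeated quantile normalization 16 of the 26 and 9 of the 17 fell in ouabain. In K+-free DMEM 16 and 12 then fell. Of the 16 and the 9 small subunit genes, 11 and 5 then fell in each treatment. These counts were not tested against each other. Mrpl55, itself found only in mitochondria, and Mrps28 were in none of these lists and are not counted.

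The cytosolic ribosome makes the mitochondrial ribosomal proteins, and its own genes served as a comparison. Of 72 cytosolic ribosomal protein genes, 0 were called lower and 1, Rpl23, higher in ouabain, while 3, Rpl3, Rpl14 and Rpl15, were called lower in K+-free DMEM and 0 higher; centred on B2m, 4 and 19 were called lower. Their mean signals, with a median of 12.6, are higher than those of the mitochondrial set, and 3 of 72 in ouabain and 22 of 72 in K+-free DMEM had all treated arrays below all controls. The respiratory chain and ATP synthase hold the partners of the proteins that mitochondrial ribosomes make. Of 73 nuclear genes for their subunits, 22 fell and 5 rose in ouabain and 15 fell and 6 rose in K+-free DMEM, and on the B2m scale 36 and 27 fell. The shares called lower, 30.1% and 20.5%, lay near those of all genes and below those of the genes at least as bright as Mrpl2 given above. Most of those that fell belonged to complex I, the entry point of electrons from NADH, with 16 of 32 lower in ouabain and 11 in K+-free DMEM. These shares, 50% and 34.4%, stand beside 36.4% and 38.7% of the genes at least as bright as Mrpl2. The share in K+-free DMEM was thus not above that background, and after a repeated quantile normalization 13 and 10 of the 32 fell. Ndufs3 changed by -1.11 and -1.24, Ndufb9 by -0.86 and -0.88, and Ndufs7 by -0.93 and -0.70. In complexes II to IV, 6 of 26 fell in ouabain and 4 in K+-free DMEM, among them Sdhb (-0.69 and -0.77). Of 15 ATP synthase genes, 0 were called lower and 2, Atp5mc3 and Atp5mg, higher in both treatments, where the B2m scale gave 6 and 3 lower. The share of mitochondrial ribosomal protein genes called lower was above that of both lists as reported, centred on array medians (48 and 50 of 70), centred on B2m (57 and 58) and after a repeated quantile normalization (42 and 45), although such shares were not tested against each other. On the B2m scale 29.8% and 32.0% of all genes were lower, and 3675 and 3877 of the 7872 at least as bright as Mrpl2. After the repeated normalization these were 20.9% and 22.7%, and 2548 and 2785.

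**Figure D4:**
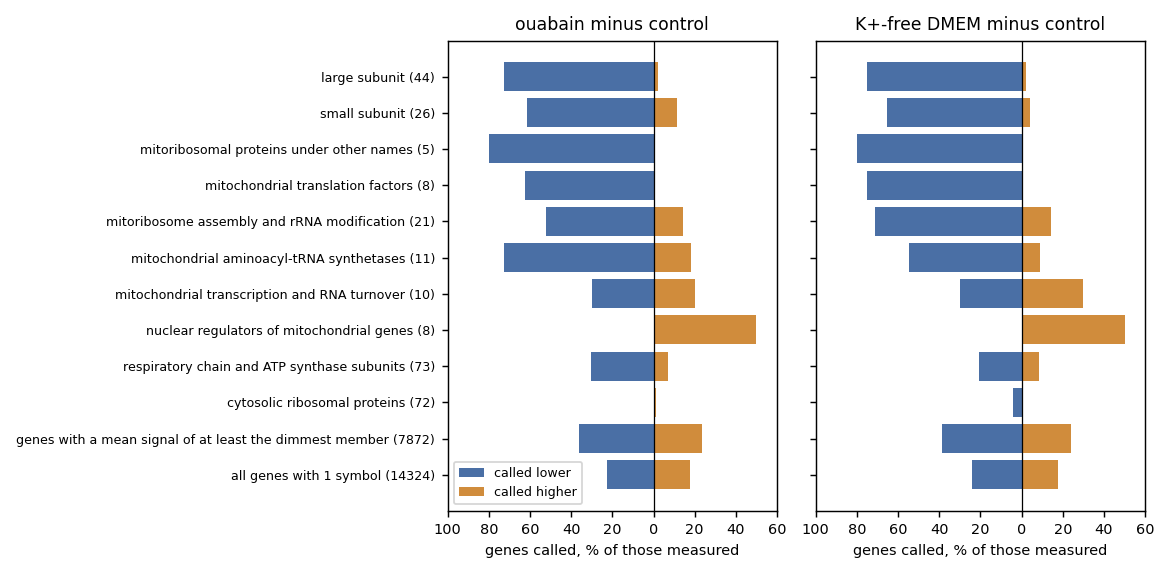
Share of genes called lower (blue, to the left) and higher (orange, to the right) in each list, in percent of the genes measured, whose number stands in brackets, in either treatment. The large and small subunit bars reach 72.7% and 61.5% lower in ouabain, the large one is longer still in K+-free DMEM (33 of 44), and the cytosolic ribosomal proteins reach 0% and 4.17% (5.56% and 26.4% when centred on B2m).

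Further genes that serve the mitochondrial ribosome were counted in the same way. Beside them, 22.7% and 24.0% of all genes were called lower in ouabain and K+-free DMEM, and 36.4% and 38.7% of those at least as bright as Mrpl2. Of 5 measured proteins of that ribosome which bear other names, 4 fell in both treatments, among them Chchd1 (-0.72 and -0.97) and Aurkaip1 (-0.81 and -0.73), and Dap3, a GTP-binding protein of the small subunit, was not called at -0.22 and -0.13. Of 8 measured translation factors, 5 fell in ouabain and 6 in K+-free DMEM, with a median change of -0.88 and -0.77. Guf1, which lets stalled ribosomes step back, changed by -1.77 and -1.12, and Mrrf and Gfm2, which together split spent ribosomes, by -1.70 and -1.03 and by -1.29 and -0.95. These 3 were lower in ouabain than in K+-free DMEM, with limma adjusted p of 1.90e-05, 6.81e-06 and 0.002. Mtif2, the initiation factor, dropped by 0.84 in K+-free DMEM and was not called in ouabain (-0.21), and Tufm, the elongation factor that delivers tRNA, was called in neither (0.05 and -0.03). Of 11 measured aminoacyl-tRNA synthetases of mitochondria, which charge the tRNAs, 8 fell and 2 rose in ouabain and 6 fell and 1 rose in K+-free DMEM. After a repeated quantile normalization 5 and 4 fell, where 2548 and 2785 of the 7872 genes at least as bright as Mrpl2 did. The share in K+-free DMEM was then near that background. Pars2 changed by -1.05 and -0.75 and Nars2 by -0.81 and -0.96, whereas Yars2, which rose by 0.92 in ouabain, fell by 0.34 with K+-free DMEM, a difference of -1.27 (limma adjusted p = 1.82e-07).

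Of 21 measured genes for assembly of the ribosome and modification of its RNA, 11 fell and 3 rose in ouabain and 15 fell and 3 rose in K+-free DMEM. The shares lower were 52.4% and 71.4%, beside 36.4% and 38.7% of the genes at least as bright as Mrpl2. After a repeated quantile normalization 10 and 13 fell. The GTPases Mtg1 and Mtg2, which act late in the making of the large subunit, changed by -1.39 and -1.31 and by -1.50 and -1.63. Rbfa, which helps the small subunit mature, changed by -1.43 and -1.54. Noa1, another GTPase of the list, rose by 0.97 and 0.45, and Mterf3, from a family of mitochondrial nucleic acid binding proteins, by 0.70 and 0.60. Rpusd4, a pseudouridine synthase, fell in K+-free DMEM (-1.11) and was not called in ouabain (-0.26). Of 10 genes for transcribing mitochondrial DNA and degrading its RNA, 3 were lower in each treatment and 2 and 3 higher, shares near those of all genes and of the brighter ones. Its elongation factor Tefm changed by -1.53 and -0.91, Tfam, which packs mitochondrial DNA, rose by 0.48 in K+-free DMEM and was 0.20 above control in ouabain, not called, with a difference of 0.27 between them (limma adjusted p = 0.0118), and the poly(A) polymerase Mtpap rose by 0.54 and 0.81. Of 8 measured nuclear regulators of mitochondrial genes, 0 were called lower and 4 higher in each treatment. Of all genes 17.5% and 17.8% were called higher in ouabain and K+-free DMEM, and of those at least as bright as Mrpl2 23.5% and 24.1%. On the B2m scale 3 and 2 of the 8 were higher and 1 lower in each, where 9.87% and 10.7% of all genes were higher. Yy1 rose by 0.73 and 0.99, the coactivator Pprc1 by 0.95 and 0.41 and Myc by 0.60 and 0.85. Nrf1 rose by 0.40 in ouabain and was -0.08 in K+-free DMEM, and Gabpa, the DNA-binding part of the ETS factor GABP, was 0.21 in ouabain, not called, and rose by 0.31 in K+-free DMEM.

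The 70 genes lie on 17 chromosomes, with at most 13 on 1. For 57 of them RefSeq's table holds a promoter, taken as the 250 bases before to 50 after the start on GRCr8. Its windows were searched on both strands for CGCATGCG, the core of the NRF1 site, CCGGAAG, the core of the site of ETS factors such as GABP, AAGATGGCG, a site of YY1, and CACGTG, the E-box. The second and the third could share the letters AAG and did so in 0 of these genes. The ETS core stood in 18 of the 57 (31.6%, against 9.63% of 27457 genes with a promoter entry and 13.1% of those on the array), the YY1 site in 9 (15.8%, against 1.99% and 2.70%), the NRF1 core in 6 (10.5%, against 1.86% and 2.72%) and the E-box in 7 (12.3%, against 7.08% and 8.06%). At least 1 of the 4 was found in 30 genes, or 52.6%, compared with 18.3% of all genes. In the upstream runs printed above, the ETS core of Mrps27 begins 46 bases before the start of its promoter entry, and its YY1 site lies after the start, outside the run. The NRF1 core of Mrpl32 begins 61 bases before the start. Among the 35 genes lower in both treatments with a promoter entry, 13 held the ETS core and 6 the YY1 site. The NRF1 core and the E-box stood in 4 each. Among the other 22 genes there were, in the same order, 5, 3, 2 and 3. A match is a string of letters and does not show that a factor binds there.

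Many of these genes start back to back with a neighbour. Of the 57, 18 (31.6%) have a gene on the opposite strand whose start lies within 1000 bases upstream, against 11.4% of all genes with a promoter entry and 12.8% of those on the array. The neighbour was measured for 14. Of the 14 neighbours 6 were called lower in each treatment. Of all genes 22.7% and 24.0% were called lower in ouabain and K+-free DMEM, and of those at least as bright as Mrpl2 36.4% and 38.7%. In ouabain 5 and in K+-free DMEM 6 of the 14 were called lower together with a lower neighbour. Mrps11 and Mrpl46, 234 bases apart, are neighbours of each other, so that both count among the 6. Most of the 70 genes fell with or without such a neighbour, and whether pairs fell together more often was not tested. Mrps27 starts 91 bases from Ptcd2, a gene for another pentatricopeptide repeat protein, which fell by 2.004 (limma adjusted p = 1.88e-07) in ouabain and by 1.79 (adjusted p = 3.78e-07) in K+-free DMEM. Mrpl30 and Mitd1, 194 bases apart, also fell together, Mitd1 by 1.21 and 1.32, and Hira, a histone chaperone 186 bases from Mrpl40, fell by 0.70 and 0.50. Other neighbours did not follow. Psma2, a proteasome subunit 210 bases from Mrpl32, rose by 0.41 in K+-free DMEM (adjusted p = 0.00359), where Mrpl32 fell by 1.61. Ppp1r10, 588 bases from the uncalled Mrps18b, rose by 1.25 and 1.30, and Fau, a gene for a cytosolic ribosomal protein 186 bases from Mrpl49, was 0.24 and 0.25 above control and not called.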

How the data were processed

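The authors extracted total RNA and hybridised it to 9 Affymetrix Rat Gene ST arrays, and deposited log2 signals made with RMA; the labels also name Partek, without versions. The methods also name MAS5 and GeneSpring for data analysis. The deposited log2 values were used without further scaling. Of 27342 probe sets, 15097 carry 1 symbol in the platform annotation, 323 several and 11922 none, and 15067 of the first have a RefSeq gene identifier. Groups came from the labels. That the replicates are separate experiments rests on the methods.

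limma 3.58.1 in R 4.3.3 estimated a mean for each condition from the 9 arrays, the variances were moderated by empirical Bayes (4.59 prior degrees of freedom), and p-values were adjusted by Benjamini-Hochberg over every probe set in each contrast. Such a test was used because an exact permutation test of 3 against 3 cannot go below p = 0.1. The fit was tested on simulated data. Genes and lists were chosen with earlier results of these data known. Values are given for the 8 largest falls and up to 6 largest rises of each treatment among called members whose arrays do not overlap (4 rises in ouabain and 2 in K+-free DMEM), the 4 largest differences each way between treatments, the stalk and exit tunnel, the members the study prints, those with several probe sets, nearest the limits, brightest and dimmest, and up to 3 of each other list; further genes named, and the back-to-back neighbours, were picked after their values were seen. The lists of bacterial descent, translation factors, synthetases, assembly, transcription, regulators and other subunits come from textbook knowledge. Alternatives were other scalings, filters, fits and fold limits, a replicate block and leaving out each array. Plots were drawn with Python 3.11.15, pandas 2.3.3 and matplotlib 3.10.9. Mrpl20, whose probe set carries a second symbol, was left out.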

Additional observations from a re-analysis of the deposited data

How the results depend on the processing

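The median changes of the large and the small subunit against control kept their sign under every alternative run, whereas a count has no sign that could change. Between K+-free DMEM and ouabain, the 10 lower and 12 higher genes became 10 and 9 after a repeated quantile normalization. Centred on B2m they became 10 and 10. With a limit of 1.5-fold, 28 genes were lower and 1 higher in ouabain, 28 lower and 0 higher in K+-free DMEM, and 2 lower and 0 higher in K+-free DMEM than in ouabain. The share of all genes called at that limit is not given here. Centred on B2m, which moves the median of all genes from 0.06 to -0.09 in ouabain and from 0.05 to -0.11 in K+-free DMEM, 2 and 0 genes were higher. The large subunit medians were then -0.70 and -0.65 and those of the small subunit -0.61 and -0.60. A repeated quantile normalization gave -0.40 and -0.37 for the large and -0.30 and -0.31 for the small subunit, in ouabain and K+-free DMEM. In ouabain the large subunit median was -0.46 without the 3 members the study prints, chosen after seeing the data, and the small subunit median -0.52 with Mrps18a and Mrps30 assigned by structure. The cause of these shifts beyond the changed scale or membership was not tested.

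Leaving out 1 array at a time gave 46 to 50 lower and 3 to 5 higher genes in ouabain, 49 to 50 and 1 to 2 in K+-free DMEM, and 6 to 11 lower and 9 to 12 higher in K+-free DMEM than in ouabain. The medians ranged from -0.57 to -0.48 and from -0.50 to -0.47 for the large and from -0.50 to -0.42 and from -0.48 to -0.42 for the small subunit. Under all 19 refits, 40 of 48 falls in ouabain and 43 of 50 in K+-free DMEM stayed called. Of the rises, 2 of 4 in ouabain and 0 of 2 in K+-free DMEM did. Between K+-free DMEM and ouabain, 6 of the 12 higher and 6 of the 10 lower calls stayed. The methods describe control and treated cultures run side by side within each experiment. Same-numbered arrays deviated together at -0.046 to 0.309, which with 3 arrays a group cannot show whether equal numbers are pairs. They were not taken as pairs in the main fit, and a replicate block gave the same counts, 48 and 4, 50 and 2, and 10 and 12. Precision is limited by 3 arrays a group.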
